A study of Mus musculus with 21 samples.

Results

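Alx1, Alx4, Prrx1 and Prrx2 are 4 homeobox genes of the paired-like class, picked by gene symbol from the 24594 gene rows of each of 2 tables of read counts from mouse embryos. All 4 were present in both tables and all 4 passed the filter on low values, a level of 1 CPM or more in 2 or more libraries. CPM is the count of a gene scaled to the size of its library, here after TMM scaling. Alx1 passed the filter in the stage table only through the E10.5 libraries, because its level was below 1 CPM in every library of the later stages.

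The proteins of these genes bind DNA through a homeodomain and regulate genes of the mesenchyme that builds the skull, the face and the limbs. Prrx1 and Prrx2 are known to act partly redundantly in the craniofacial and limb skeleton, and the Alx genes are known for their part in the frontonasal region and the skull vault. Cranial neural crest cells are migratory cells from the dorsal neural tube that fill the pharyngeal arches, and the external ear (pinna) forms partly from those of the second arch.

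The arch table held 12 libraries from E10.5 embryos, with 3 replicates each of the second pharyngeal arch (PA2) and the third arch (PA3) taken either from wild type (WT) embryos or from homozygotes of HIRE1del, a CRISPR-Cas9 deletion of an enhancer region that contacts the Hoxa genes. The stage table held 9 libraries, with 3 replicates each of PA2 at E10.5, the pinna at E12.5 and the pinna at E14.5, from embryos carrying Wnt1::Cre and a Rosa reporter for red fluorescent protein, whose labelled crest cells were sorted. Wnt1::Cre labels the lineage of the dorsal neural tube, so the reporter marks origin and not cell type. The deletion was made in C57Bl/6J zygotes, the embryos came from a mixed C57Bl/6J and CD1 background, and each replicate was a pool that could hold embryos of either sex. Dissociation used trypsin at E10.5 and E12.5 and papain at E14.5, which cannot be told apart from the stage.

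Arch libraries held 25804446 to 32210131 counts and stage libraries 25814151 to 49058941. Every library is labelled as cranial neural crest. In the arch table the summed level of 6 erythroid genes was nonetheless 1530 to 3310 CPM in PA2 and 12400 to 24400 CPM in PA3, against 1.83 to 11.6 CPM in the stage table. The 8 epithelial markers summed to 236 to 287 CPM in PA2 and 459 to 741 CPM in PA3, against 11.2 to 46.2 CPM in the stage table, so RNA of other cell types was present in the arch libraries. Fewer cells of a type and less RNA per cell cannot be told apart in such bulk samples. WT replicate 1 stood apart in 4 Y-linked genes, which summed to 0.271 CPM in PA2 and 6.62 CPM in PA3 against 117 to 268 CPM in the other 4 WT libraries, and results that this library pair changed are given without it. The check of the deletion was Hoxa2, a selector gene of PA2 identity, which was at 78.3 ± 5.49 CPM (SD, n = 3) in PA2 of WT and 5.87 ± 1.17 CPM in PA2 of HIRE1del embryos, and at 61.4 ± 4.72 CPM in PA3 of WT and 23.8 ± 1.75 CPM in PA3 of HIRE1del embryos.

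The 4 genes lie apart in the genome. In GRCm38 (GENCODE M21), Prrx1 (ENSMUSG00000026586) lies on the minus strand at chr1:163245119-163313710, Prrx2 (ENSMUSG00000039476) on the plus strand at chr2:30834972-30881251, Alx4 (ENSMUSG00000040310) on the plus strand at chr2:93642384-93681339 and Alx1 (ENSMUSG00000036602) on the minus strand at chr10:102998707-103030215. The homeobox, which encodes the DNA-binding domain of 60 residues, is shown because it is the coding stretch that the 4 genes share, where reads of one gene might be taken for another. In each gene it was split by 1 intron at the same place, with 138 bases in one exon and 42 in the next. In Prrx1 these were exons 2 and 3 (chr1:163261840-163261977 and chr1:163257901-163257942), in Prrx2 exons 2 and 3 (chr2:30878454-30878591 and chr2:30879492-30879533), in Alx4 exons 2 and 3 (chr2:93668528-93668665 and chr2:93675296-93675337) and in Alx1 exons 3 and 4 (chr10:103025135-103025272 and chr10:103022264-103022305). The coding strand of each homeobox is printed 5′ to 3′ from the GENCODE transcript, and capitals mark the bases that differ between the 2 genes of a pair.
Prrx1: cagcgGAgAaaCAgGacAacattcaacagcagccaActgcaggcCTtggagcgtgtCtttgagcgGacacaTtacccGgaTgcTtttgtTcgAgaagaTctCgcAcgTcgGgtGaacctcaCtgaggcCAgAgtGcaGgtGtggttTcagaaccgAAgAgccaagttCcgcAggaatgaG
Prrx2: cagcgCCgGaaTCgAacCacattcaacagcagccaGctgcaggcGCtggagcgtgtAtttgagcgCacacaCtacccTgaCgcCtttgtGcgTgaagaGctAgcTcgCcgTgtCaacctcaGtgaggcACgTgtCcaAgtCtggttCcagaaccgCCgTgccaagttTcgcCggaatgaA
Alx1: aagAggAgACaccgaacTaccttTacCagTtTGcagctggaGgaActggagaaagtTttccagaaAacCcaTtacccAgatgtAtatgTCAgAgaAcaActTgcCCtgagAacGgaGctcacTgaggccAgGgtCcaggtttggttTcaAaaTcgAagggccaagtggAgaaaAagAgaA
Alx4: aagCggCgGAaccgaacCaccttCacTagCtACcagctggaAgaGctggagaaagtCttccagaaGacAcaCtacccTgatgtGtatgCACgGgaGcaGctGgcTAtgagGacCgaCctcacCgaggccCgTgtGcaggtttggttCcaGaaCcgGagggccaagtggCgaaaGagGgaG

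Prrx1 and Prrx2 had 142 of 180 homeobox bases in common (78.9%). They differed in 34 of the 60 codons, and 32 of these differing codons encoded the same residue. Alx1 and Alx4 had 138 bases in common (76.7%) and differed in 37 codons, of which 32 encoded the same residue. Across the pairs, identity ran from 60.6% (Alx1 and Prrx2) to 69.4% (Alx4 and Prrx2). The longest run without a difference anywhere in the annotated transcripts was 19 bases for Prrx1 with Prrx2 and 19 for Alx1 with Alx4. Reads were 50 bases long, and no 50-base stretch occurred in transcripts of more than 1 of these 4 genes, so a read without mismatches could not come from more than 1 of them. Of the 50-base stretches of Alx1 transcripts, 3.29% also occurred in Gm17028, a lincRNA annotated on the same strand over Alx1 exons, which was not analysed here. The corresponding shares with any other gene were 0.156% for Alx4, 0.171% for Prrx1 and 0 for Prrx2.

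Levels between genes are compared as RPKM, the CPM of a gene per kilobase of its exons, since the exon lengths ran from 1961 bases in Prrx2 to 11066 bases in Prrx1. One exonic length was used for each gene, whatever transcripts were expressed, so the order of genes near in RPKM depends on it. Prrx1 and Prrx2 were the abundant pair. In PA2 of WT embryos Prrx1 was at 24.8 ± 1.62 RPKM and Prrx2 at 20.7 ± 2.64 RPKM (SD, n = 3), above 83.6% and 79.7% of the 14383 genes tested. Alx4 was at 1.48 ± 0.264 RPKM and Alx1 at 0.787 ± 0.200 RPKM, above 24% and 16.2% of these genes. The Prrx genes stayed the higher pair in all 7 groups. In sorted crest of the E12.5 pinna Prrx1 reached 45.0 ± 1.96 RPKM, above 93.6% of the 13438 genes tested in that table, and Alx1 was at 0.0334 ± 0.0101 RPKM, above 0.729%.

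The first comparison asked how loss of HIRE1 changed these genes in PA2. Fold changes and tests are from edgeR's quasi-likelihood fit across all genes, with Benjamini-Hochberg adjustment over all of them and a gene called at an adjusted p under 0.05. Of all genes, 0.438% were called in PA2, and 1 of the 4 members was. That member was Alx4, a regulator of limb and skull patterning. It was among the genes the study singled out on these same samples, so its call is not independent evidence. The 3 WT libraries held Alx4 at 9.06, 12.6 and 9.79 CPM and the 3 HIRE1del libraries at 29.7, 29.4 and 47.5 CPM. The groups did not overlap, and HIRE1del replicate 3 was the highest. The log2 fold change was 1.76 ± 0.20 (SE; 95% interval 1.338 to 2.183; adjusted p = 0.000537).

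Alx1, a gene of frontonasal mesenchyme needed in mice for closure of the cranial neural tube, was at 2.56, 2.52 and 3.85 CPM in WT PA2 and at 1.80, 1.60 and 2.73 CPM in HIRE1del PA2. The ranges overlapped through the third replicate of HIRE1del embryos, and the log2 fold change was -0.54 (95% interval -1.28 to 0.20; adjusted p = 0.721). Prrx1 was at 285, 254 and 286 CPM in WT and at 307, 291 and 354 CPM in HIRE1del PA2. Each HIRE1del library was above each WT library, but by little, with a log2 fold change of 0.21 (95% interval -0.03 to 0.44; adjusted p = 0.647). Prrx2 was at 42.9, 44.3 and 34.7 CPM in WT and at 53.2, 45.4 and 37.6 CPM in HIRE1del PA2, which overlapped (log2 fold change 0.16; 95% interval -0.09 to 0.42; adjusted p = 0.766). The intervals leave room for changes of up to 0.44 in Prrx1 and 0.42 in Prrx2 on the log2 scale.

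In PA3, 0.216% of all genes were called by edgeR, and none of the 4 members was. At an unadjusted edgeR p under 0.05 there were 2 members, beside 1400 of all 14383 genes. The DESeq2 test, which called more genes in all than edgeR, called 1 member. Alx4 was at 12.3, 11.9 and 11.9 CPM in WT PA3 and at 19.7, 17.8 and 26.5 CPM in HIRE1del PA3. The groups did not overlap, with a log2 fold change of 0.82 ± 0.19 (95% interval 0.41 to 1.24) and an adjusted p of 0.179. The DESeq2 test called it (adjusted p = 0.00544, log2 fold change 0.82). Alx1 was at 5.97, 8.15 and 10.1 CPM in WT PA3 and at 2.66, 3.29 and 6.40 CPM in HIRE1del PA3. HIRE1del replicate 3 lay above WT replicate 1, and the log2 fold change was -0.97 (95% interval -1.64 to -0.30; adjusted p = 0.344). Prrx1 was at 193, 211 and 225 CPM in WT and at 208, 226 and 289 CPM in HIRE1del PA3 (log2 fold change 0.20; 95% interval -0.03 to 0.44; adjusted p = 0.578). Prrx2 was at 63.4, 62.7 and 65.4 CPM in WT and at 69.0, 66.7 and 56.9 CPM in HIRE1del PA3 (log2 fold change 0.01; 95% interval -0.24 to 0.26; adjusted p = 0.993).

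**Figure D1:**
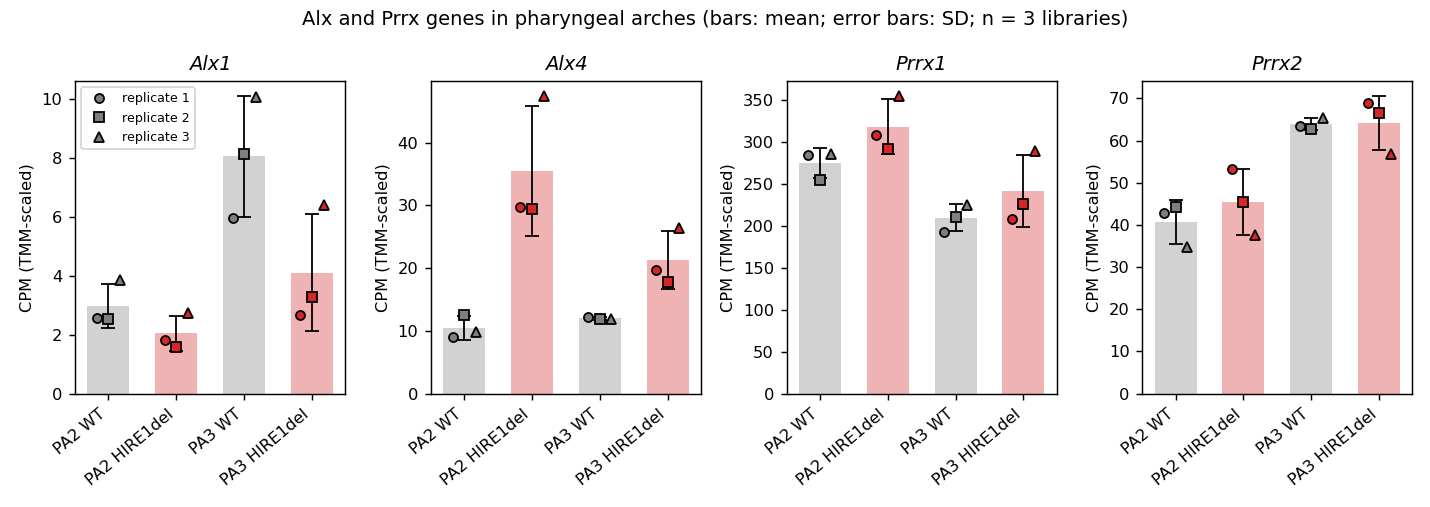
CPM (vertical axis, from 0) of the 4 genes in PA2 and PA3 of WT (grey) and HIRE1del (red) embryos at E10.5, with bars for the mean of 3 libraries, error bars for the SD and symbols for replicate numbers. The 3 HIRE1del libraries of PA2 held Alx4 at 29.4 to 47.5 CPM, all above the WT libraries, while Prrx2 was higher in PA3 than in PA2 in both genotypes.

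Replicate 3 of HIRE1del embryos was the highest of its group for Alx1, Alx4 and Prrx1, and the lowest for Prrx2, in both arches. In PA2 this library held Alx4 at 47.5 CPM against 29.4 and 29.7 CPM, and in PA3 at 26.5 CPM against 17.8 and 19.7 CPM. Without it the PA2 change in Alx4 was 1.495 on the log2 scale (adjusted p = 0.000882) and remained called.

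Whether the deletion acted on these genes unequally in the arches was tested by the difference of its effects, PA2 minus PA3. This difference was called by edgeR for 0.0487% of all genes, and neither edgeR nor DESeq2 called it for any of the 4 members. At an unadjusted edgeR p under 0.05 there was 1 member, beside 794 of all 14383 genes. For Alx4 the difference was 0.94 ± 0.27 on the log2 scale (95% interval 0.34 to 1.53, adjusted p = 0.825). PA2 and PA3 libraries of the same genotype and number deviated together, and with the shared number as a replicate block within genotype the difference was 0.93 and passed the threshold (adjusted p = 0.022, 26 genes called). The fit without the block left this pairing out, so the Alx4 call depended on whether the pairing was fitted. The differences were 0.43 for Alx1, 0.01 for Prrx1 and 0.16 for Prrx2 (adjusted p = 0.922, 0.996 and 0.918), and the block called none of them.

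The arches themselves were compared next, with the same groups read the other way. The fit left out the pairing of PA2 and PA3 by replicate number. A block for this pairing changed no call of a member between the arches of either genotype. In WT embryos 36.5% of all genes were called between PA3 and PA2 (19.1% higher and 17.4% lower in PA3), and 3 of the 4 members were, so that a called member is nothing unusual here. Alx1 rose from 2.98 ± 0.755 CPM in PA2 to 8.06 ± 2.05 CPM in PA3 (SD, n = 3), a log2 fold change of 1.43 ± 0.32 (adjusted p = 0.00345). Prrx2 rose from 40.6 ± 5.18 to 63.9 ± 1.40 CPM (log2 fold change 0.65 ± 0.12; adjusted p = 0.000887). Prrx1 fell from 275 ± 17.9 to 209 ± 16.0 CPM (log2 fold change -0.39 ± 0.11; adjusted p = 0.0129). For these 3 genes the groups did not overlap, and the Prrx genes thus moved in opposite directions. The share of all genes without such overlap was not computed in any comparison, so non-overlap only describes the genes named. The Prrx1 call was lost without PA3 WT replicate 1 (log2 fold change -0.34; adjusted p = 0.0541). Without WT replicate 1 of either arch, a setting chosen after seeing the data, the Prrx1 change was -0.31 and no longer called (adjusted p = 0.122), a fit that called 3449 genes in place of 5252. Alx4 was at 10.48 ± 1.86 CPM in PA2 and 12.03 ± 0.219 CPM in PA3, and its ranges overlapped (log2 fold change 0.20; 95% interval -0.23 to 0.63; adjusted p = 0.472).

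In HIRE1del embryos 33.4% of all genes were called between the arches, and all 4 members were. Alx4 was lower in PA3, at 21.3 ± 4.57 CPM, than in PA2, at 35.5 ± 10.3 CPM (log2 fold change -0.74 ± 0.19; adjusted p = 0.00852), and the groups did not overlap. Prrx1 fell by 0.40 ± 0.11 on the log2 scale (adjusted p = 0.0129) and Prrx2 rose by 0.50 ± 0.12 (adjusted p = 0.0056), both without overlap. Alx1 rose by 1.01 ± 0.34 (adjusted p = 0.0347), with ranges that overlapped. Its call was lost without PA3 HIRE1del replicate 3 (log2 fold change 0.54; adjusted p = 0.192), without PA2 HIRE1del replicate 1 (0.92; adjusted p = 0.1) and without PA2 HIRE1del replicate 2 (0.86; adjusted p = 0.121). The Prrx1 call was lost without PA2 HIRE1del replicate 3 (adjusted p = 0.0581) and without PA3 HIRE1del replicate 1 or 2 (adjusted p = 0.062 and 0.0532).

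Cell-type markers moved with the arch. The 7 markers of crest mesenchyme summed to 1820 to 2070 CPM in WT PA2 and 1390 to 1750 CPM in WT PA3, and the 6 endothelial markers to 273 to 290 and 335 to 359 CPM. The 6 neuronal markers summed to 58.2 to 63.4 CPM in WT PA2 and 134 to 180 CPM in WT PA3, and the erythroid and epithelial sums were higher in PA3 as given above. Their part in the arch differences of the 4 genes was not tested. Between genotypes in PA2 the crest sum was 1750 to 2120 CPM in HIRE1del embryos, which overlapped the WT range, and the Schwann and glia sum was 33.0 to 41.2 against 44.2 to 49.5 CPM in WT. The 6 muscle markers summed to 22.2 to 24.1 CPM in HIRE1del and 25.9 to 27.1 CPM in WT PA2, which did not overlap, and to 43.5 to 55.6 and 41.9 to 49.0 CPM in PA3. The 5 immune markers summed to 17.8 to 26.8 CPM and the 5 melanocyte markers to 3.66 to 11.2 CPM over the 12 libraries. The neuronal sum was 43.3 to 51.1 CPM in HIRE1del PA2, below WT. The part of these shifts in the Alx4 change was not tested.

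Ordered by level, Alx4 ran from WT PA2 through WT PA3 (10.48 and 12.03 CPM, not told apart) and HIRE1del PA3 (21.3 CPM) to HIRE1del PA2 (35.5 CPM). Alx1 ran from HIRE1del PA2 (2.04 CPM) through WT PA2 (2.98 CPM) and HIRE1del PA3 (4.11 CPM) to WT PA3 (8.06 CPM), and each of these neighbours overlapped the next. Prrx1 was highest in HIRE1del PA2 (318 CPM), then WT PA2 (275 CPM), HIRE1del PA3 (241 CPM) and WT PA3 (209 CPM), of which HIRE1del PA3 overlapped both WT PA2 and WT PA3. Prrx2 had the 2 PA3 groups at the top (64.2 and 63.9 CPM) and the 2 PA2 groups below (45.4 and 40.6 CPM), and the genotypes within an arch were not told apart.

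The second set of libraries asked how the genes changed as crest cells of PA2 formed the pinna. Most genes changed between stages, so a call says little about a single gene and the sizes matter more. From PA2 at E10.5 to the pinna at E12.5, 68.8% of all genes were called (35% higher and 33.7% lower), and 3 of the 4 members were. From E12.5 to E14.5 it was 65.7% of genes (32.6% higher and 33.1% lower) and 4 of 4 members, and from E10.5 to E14.5 it was 82% of genes (42% higher and 40% lower) and 4 of 4 members. Alx1 was admitted to the stage table by its E10.5 level alone. Both counts against E10.5 include it as called, and it should be left aside in reading them.

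Alx1 had the largest change of the 4 genes. The E10.5 libraries held 115, 105 and 98 Alx1 counts (3.847, 3.603 and 3.203 CPM), the E12.5 libraries 3, 3 and 5 counts (0.111, 0.0980 and 0.170 CPM) and the E14.5 libraries 36, 47 and 29 counts (0.793, 0.988 and 0.635 CPM). No group overlapped another, and the E12.5 pinna was at or near the floor of 3 counts in each library. Summed over libraries, the E12.5 level was 3.56% of that at E10.5, with an exact 95% interval of 1.76 to 6.46% that covers counting error only. It was 15.7% of that at E14.5 (7.6 to 29.1%). The fitted log2 fold changes, which at such counts depend on the prior count, were -4.77 from E10.5 to E12.5, -2.13 from E10.5 to E14.5 and 2.64 from E12.5 to E14.5. The first and second of these are given as a description with no test, because the filter admitted Alx1 through its high E10.5 level, and the third had an adjusted p of 4.86e-05.

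Alx4 fell at each step. It was at 13.6, 16.5 and 19.1 CPM at E10.5, at 12.9, 10.8 and 11.9 CPM at E12.5 and at 4.87, 6.85 and 4.09 CPM at E14.5, with no overlap between groups. The first step was small, with a log2 fold change of -0.47 ± 0.18 (adjusted p = 0.0364). It was no longer called without E10.5 replicate 2 (adjusted p = 0.0776) or 3 (0.142), without E12.5 replicate 2 (0.112) or 3 (0.0903), or with total counts as the only scaling (0.0662). The second step was -1.17 ± 0.19 (adjusted p = 0.000216), and over both steps the change was -1.64 ± 0.19 (adjusted p = 6.4e-06).

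Prrx1, which marks early mesenchyme of the limbs and face, rose and then fell. It was at 358, 338 and 384 CPM at E10.5, at 485, 523 and 486 CPM at E12.5 and at 307, 332 and 321 CPM at E14.5. The E12.5 libraries were above all others. The log2 fold change was 0.47 ± 0.06 to E12.5 (adjusted p = 5.1e-05) and -0.64 ± 0.06 from there to E14.5 (adjusted p = 5.63e-06). From E10.5 to E14.5 it was -0.17 ± 0.06 (adjusted p = 0.0265). This call did not hold without E10.5 replicate 3 (adjusted p = 0.108), without E14.5 replicate 1 (0.103) or 3 (0.0557), and among genes with 1 CPM in every library (0.148).

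Prrx2, which is expressed in mesenchyme much as Prrx1 is, rose at the second step. It was at 54.6, 46.7 and 47.2 CPM at E10.5, at 54.9, 48.5 and 51.5 CPM at E12.5 and at 74.4, 58.2 and 87.9 CPM at E14.5. The E10.5 and E12.5 groups overlapped (log2 fold change 0.06; 95% interval -0.23 to 0.34; adjusted p = 0.702), and each E14.5 library was above them. The rise from E12.5 to E14.5 was 0.51 ± 0.13 on the log2 scale (adjusted p = 0.0045) and from E10.5 it was 0.57 ± 0.13 (adjusted p = 0.0015). The E14.5 libraries differed more among themselves for Prrx2 than for Prrx1, with coefficients of variation of 20.3% and 3.87%.

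**Figure D2:**
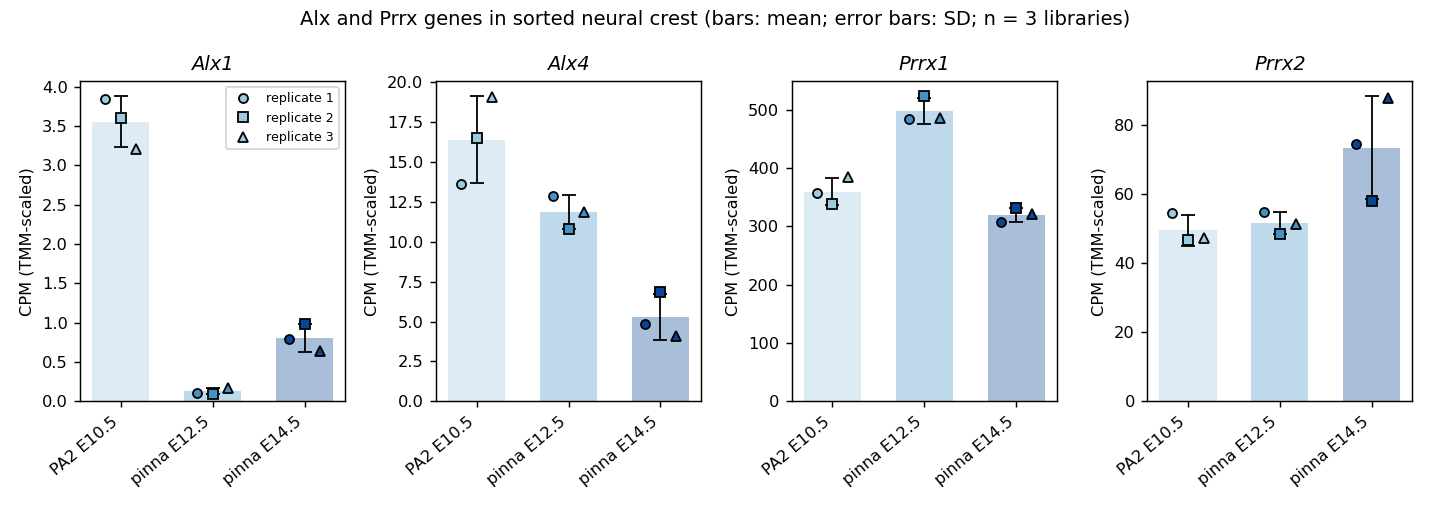
CPM (vertical axis, from 0) of the 4 genes in sorted crest cells of PA2 at E10.5 and the pinna at E12.5 and E14.5, with bars for the mean of 3 libraries, error bars for the SD and symbols for replicate numbers. Alx1 is near 0 at E12.5 (0.126 CPM on average), Alx4 falls at each step, Prrx1 peaks at E12.5 (498 CPM) and Prrx2 is highest at E14.5 (73.5 CPM).

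Markers of other fates also moved across the stages. The 5 melanocyte markers summed to 5.92 to 7.96 CPM at E10.5, 31.6 to 44.4 CPM at E12.5 and 337 to 387 CPM at E14.5. The 5 Schwann and glia markers summed to 20.5 to 23.4, 21.6 to 25.6 and 84.3 to 99.8 CPM, the 6 endothelial markers to 7.02 to 9.74, 19.3 to 27.9 and 110 to 173 CPM, and the 7 crest mesenchyme markers to 3370 to 3880, 7360 to 7870 and 22600 to 30300 CPM. The endothelial sum was carried by Kdr, a receptor of endothelial growth factors, at a mean of 3.26, 18.0 and 141 CPM, while the other 5 markers were at or below 3.19 CPM in every library. The crest sum was carried by Col3a1, a collagen gene, at 2240, 4790 and 23700 CPM. Sox9 (77.9, 30.2 and 1.76 CPM) and Dlx2 (78.9, 25.6 and 4.65 CPM), both of them crest regulators on the same list, were lower at each later stage. Epithelial markers stayed at or below 46.2 CPM and the 5 immune markers at or below 2.8 CPM. The 6 muscle markers summed to 2.6 to 12.1 CPM and the neuronal markers to 8.5 to 15.7 CPM over the 9 libraries, with Neurod1 at 0 in every E10.5 and E14.5 library. The part of these shifts in the stage changes of the 4 genes was not tested.

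**Figure D3:**
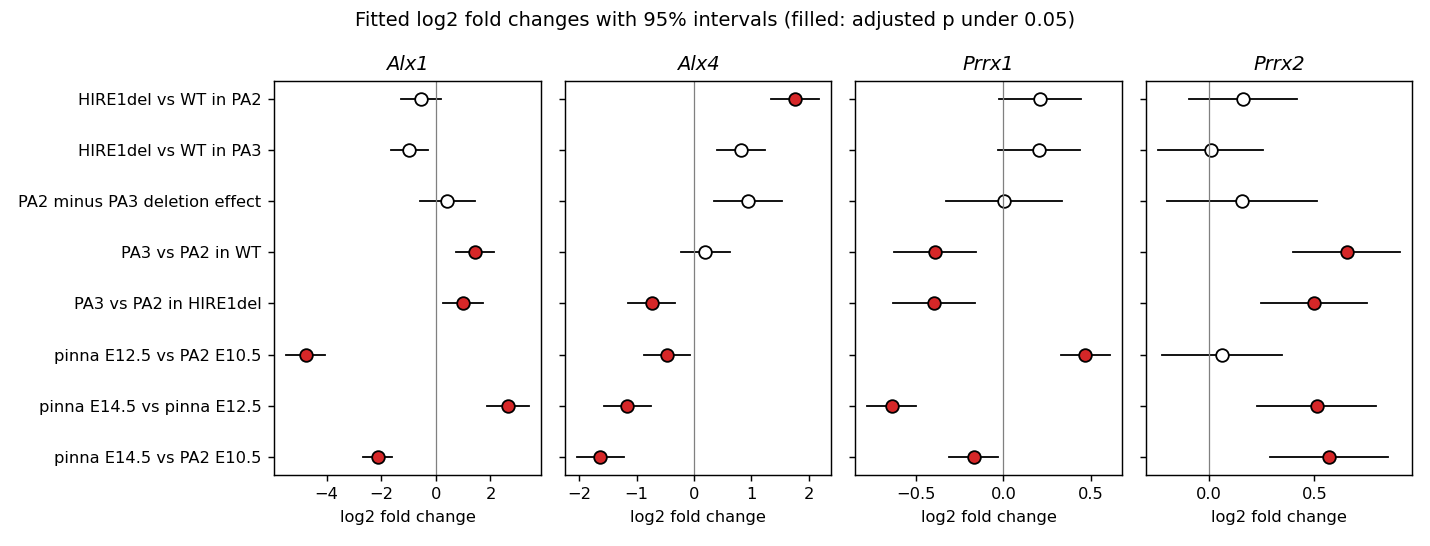
Fitted log2 fold change (horizontal axis, own scale for each gene) of the 4 genes in the 8 comparisons, with lines for 95% intervals and filled points where the adjusted p was under 0.05. In the comparisons of genotype the only filled point is Alx4 in PA2 at 1.76, and the Prrx genes lie on opposite sides of 0 in both comparisons of arches. The filled Alx1 points against E10.5 are a description only, since the filter admitted Alx1 through its E10.5 level.

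The balance within each pair was followed as the log2 ratio of per-length levels in a library, with 0.5 CPM added to each gene. With 3 libraries against 3, the exact two-sided permutation test cannot give a p below 0.1, so none of these 12 comparisons could pass 0.05, before or after adjustment. In PA2 of WT embryos the Prrx2 to Prrx1 ratio was -0.25 ± 0.26 (SD, n = 3), and in PA3 it was 0.79 ± 0.09. The difference between arches was 1.05 (exact permutation p = 0.1). Per length, Prrx1 was ahead in all 3 PA2 libraries and Prrx2 in all 3 PA3 libraries. PA2 replicate 2 was near even, with 0.993 times as much Prrx2 as Prrx1. In CPM Prrx1 was above Prrx2 in every library, so which gene was ahead depends on the exon lengths used. Differences between groups do not, because the lengths were the same in all groups. HIRE1del libraries were at -0.31 ± 0.37 in PA2 and 0.60 ± 0.39 in PA3, which overlapped WT in both arches (exact permutation p = 0.9 and 0.7). In sorted crest the ratio was -0.35 ± 0.16 at E10.5, -0.76 ± 0.15 at E12.5 and 0.36 ± 0.33 at E14.5, without overlap (exact permutation p = 0.1 for each pair of stages). Per length, Prrx1 was ahead in all 6 libraries of the first stages and Prrx2 in 2 of 3 at E14.5. There replicate 2 held 0.997 times as much Prrx2 as Prrx1 per length.

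The Alx4 to Alx1 ratio was 0.77 ± 0.44 in WT PA2 and 2.91 ± 0.09 in HIRE1del PA2, a difference of 2.14 (exact permutation p = 0.1). The HIRE1del libraries held 7.03, 7.63 and 7.95 times as much Alx4 as Alx1 per length, against 1.68, 2.32 and 1.27 times in WT. In PA3 the ratio was -0.32 ± 0.38 in WT and 1.40 ± 0.36 in HIRE1del embryos, a difference of 1.73 (exact permutation p = 0.1), again without overlap. HIRE1del replicate 3, the highest library for both genes in its group, lay with the other two on this measure in PA2. In sorted crest the ratio was 1.15 ± 0.35 at E10.5, 3.399 ± 0.135 at E12.5 and 1.23 ± 0.16 at E14.5. The E12.5 value rests on the few Alx1 counts and on the CPM added, and E10.5 and E14.5 overlapped (difference 0.08; exact permutation p = 0.9).

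**Figure D4:**
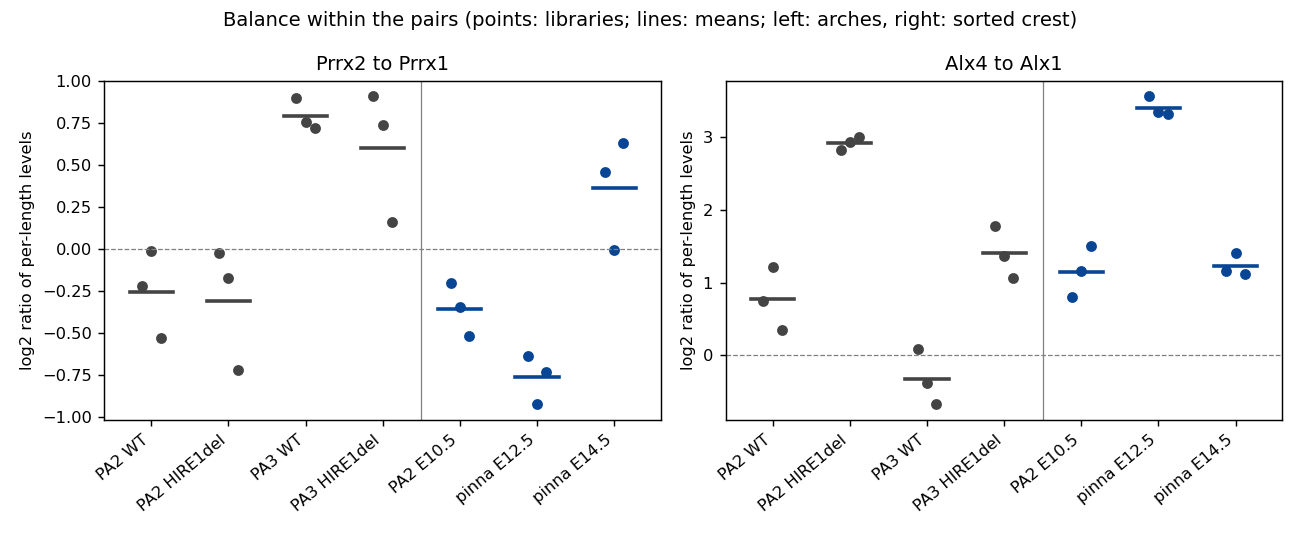
Log2 ratio of per-length levels (vertical axis) of Prrx2 to Prrx1 (left) and Alx4 to Alx1 (right) in each library of the 7 groups, with lines for group means. The Prrx ratio lies below 0 in every PA2 library, nearest at -0.01 in WT replicate 2, and above 0 in every PA3 library. The place of 0 depends on the exon lengths used. The Alx ratio is higher in HIRE1del than in WT libraries of both arches.

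Other homeobox genes of the same class were read beside the members. Of 24 such genes, 9 passed the filter in the arch table and 5 in the stage table. In PA2, 1 of the 9 was called higher in HIRE1del embryos and none lower, against 17 genes higher and 46 lower of all 14383. The called gene was Pitx1, a gene of the mandibular arch and hindlimb that the study also singled out on these samples. It was at 1.16, 1.51 and 1.39 CPM in WT PA2 and at 12.6, 16.7 and 21.4 CPM in HIRE1del PA2 (log2 fold change 3.64 ± 0.24; adjusted p = 5.85e-06). It was also the 1 called gene of the list in PA3 (log2 fold change 2.33 ± 0.26; adjusted p = 0.00116), beside 31 of all 14383 genes.

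Gsc, a gene of the ventral arches, Phox2a, a gene of autonomic and visceral neurons, and Shox2, a gene of limb and facial patterning, had log2 fold changes between genotypes of -0.48 to 0.36 in the arches, none called. Between arches in WT embryos 4 of the 9 were called higher in PA3 and 3 lower, beside 19.1% and 17.4% of all genes. Phox2a rose by 4.25 on the log2 scale (adjusted p = 1.27e-06), as the neuronal sum did. Shox2 rose by 1.00 (adjusted p = 0.0242), and Gsc fell by 3.05 (adjusted p = 0.000373).

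Across stages, Shox2 rose by 0.88 to E12.5 (adjusted p = 0.00278) and then fell by 5.34 (adjusted p = 4.24e-08). Gsc fell from 53.7 ± 9.36 CPM at E10.5 to 5.92 ± 1.26 CPM at E12.5 and 0.201 ± 0.0980 CPM at E14.5. Of the 5 genes of the list, 2 were called higher and 3 lower at E12.5, beside 35% and 33.7% of all genes. From E12.5 to E14.5, 1 was called higher and 4 lower, beside 32.6% and 33.1% of all genes.

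**Figure D5:**
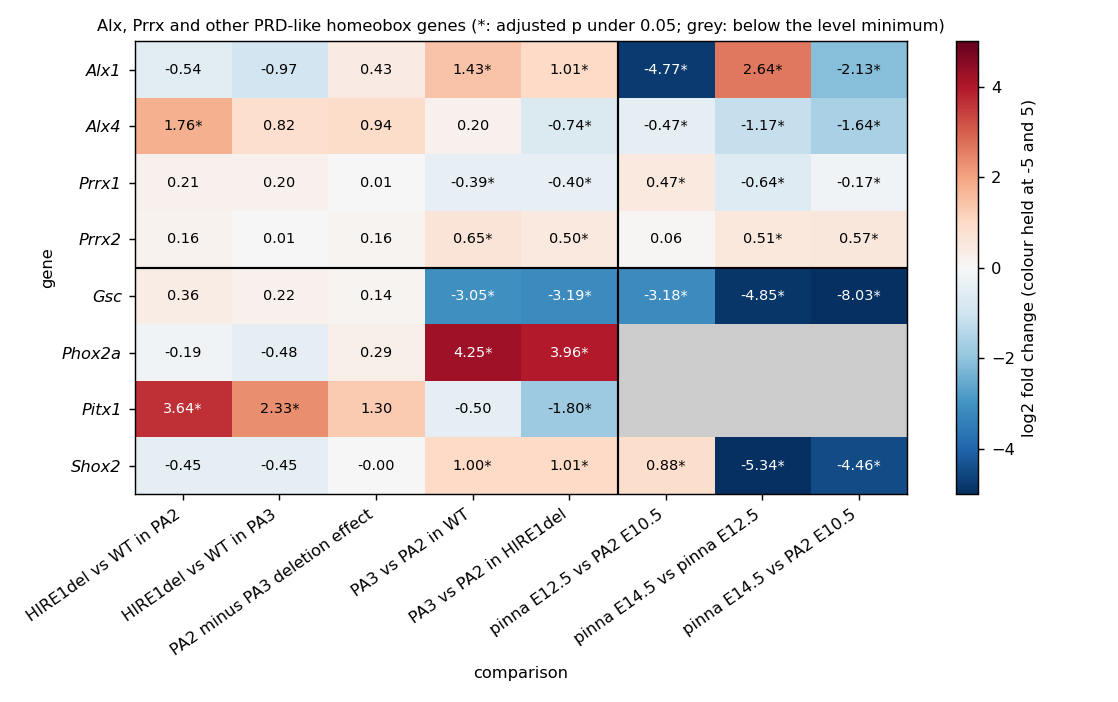
Log2 fold change (number and colour, with colour held at -5 and 5) of the 4 genes and of 4 of the listed homeobox genes that averaged 1 or more in log2 CPM (rows) in the 8 comparisons (columns), with asterisks for an adjusted p under 0.05 and grey for genes below that level in the stage table. Between genotypes the asterisks fall on Alx4 in PA2 and on Pitx1 in both arches, and at E12.5 Alx1 (-4.77) and Gsc (-3.18) are low against E10.5. The asterisks of Alx1 against E10.5 are a description only, since the filter admitted Alx1 through its E10.5 level.

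Of 24 other transcription factors of facial mesenchyme, all passed the filter in the arch table. In PA2, 2 were called higher and 2 lower in HIRE1del embryos, beside 17 and 46 of all 14383 genes. The median log2 fold change of the 24 was 0.01. Lhx6, a gene of mandibular and maxillary mesenchyme, rose from 3.69 ± 0.529 CPM by 1.52 ± 0.29 on the log2 scale (adjusted p = 0.0378), and Barx1, a gene of jaw mesenchyme and molar fields, from 54.9 ± 3.34 to 93.7 ± 0.452 CPM (adjusted p = 0.00854). Both had been singled out by the study on these samples, as had Meox1. Meox1, a somite and mesenchyme gene, fell from 10.2 ± 1.21 to 3.68 ± 0.950 CPM (adjusted p = 0.000537) and Pax9, a gene of pharyngeal pouches and jaw mesenchyme, from 19.2 ± 1.93 to 7.91 ± 1.99 CPM (adjusted p = 0.00112). In PA3 edgeR called 1 of the 24, Meox1 (log2 fold change -0.78, adjusted p = 0.0482), beside 31 of all 14383 genes. DESeq2, which called more genes in all, called 6 of the 24. Between arches in WT embryos 5 of the 24 were called higher in PA3 and 6 lower, beside 19.1% and 17.4% of all genes. Twist1 and Twist2, regulators of mesenchyme, were lower by 0.64 and 1.17 on the log2 scale, in the direction of Prrx1.

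Of these 24 genes, 23 were tested across stages. From E10.5 to E12.5, 7 were called higher and 13 lower, beside 35% and 33.7% of all genes. The median was -1.17 against 0.01 over all genes. Hand2, a gene of ventral arch identity, went from 130 ± 7.43 to 1.55 ± 0.588 CPM and Foxc1, a gene of skull and eye mesenchyme, from 131 ± 1.89 to 5.32 ± 1.18 CPM. Meox2 rose from 3.39 ± 1.27 to 22.5 ± 4.34 CPM. From E12.5 to E14.5, 11 were called higher and 11 lower, beside 32.6% and 33.1% of all genes. The median was 0.22 against -0.01 over all genes. Zeb2, a repressor of epithelial genes, rose from 65.4 ± 6.13 to 353 ± 24.4 CPM and Pax3, a gene of early crest and melanocyte precursors, from 1.50 ± 0.616 to 13.9 ± 1.06 CPM, while Meox2 fell back to 1.06 ± 0.248 CPM.

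The third list held 16 genes known from studies of Prrx or Alx mutants or of loci bound by their proteins, among them matrix genes and signals. Neither edgeR nor DESeq2 called any of the 16 between genotypes. At an unadjusted edgeR p under 0.05 there were 3 in PA2 and 2 in PA3, beside 1233 and 1400 of all 14383 genes. The median log2 fold changes were -0.19 in PA2 and -0.04 in PA3. Between arches in WT embryos 6 were called higher in PA3 and 2 lower, beside 19.1% and 17.4% of all genes. Acta2, the smooth muscle actin, was at 2.60 ± 0.420 CPM in PA2 and 75.6 ± 8.69 CPM in PA3, and Pdgfra, a receptor of mesenchyme, fell from 538 ± 55.7 to 342 ± 54.8 CPM. Across stages 14 were tested. From E10.5 to E12.5, 12 were called higher and 1 lower, beside 35% and 33.7% of all genes (median log2 fold change 1.71, against 0.01). From E12.5 to E14.5, 13 were called higher and 1 lower, beside 32.6% and 33.1% of all genes (median 1.51, against -0.01). Tnc, a gene of a matrix protein of mesenchyme, rose from 33.8 ± 15.7 CPM at E10.5 to 419 ± 71.7 CPM at E12.5, and Postn, another matrix gene, from 70.1 ± 2.21 to 346 ± 43.1 and then 2220 ± 516 CPM at E14.5. Gli3, a mediator of hedgehog signals, was the 1 gene that fell at both steps, from 174 ± 2.26 to 127 ± 6.49 and 44.5 ± 2.74 CPM.

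The genes whose log2 CPM ran most like that of a member were found among 12721 genes of the arch table and 12085 of the stage table, leaving out those that averaged under 1 on the log2 CPM scale. Over the 12 arch libraries, Alx4 ran most like Pitx1 (Pearson r = 0.96), Atp6v0e2 (0.898) and Mindy4 (0.896), and Alx1 most like Rnf150 (0.976), Boc (0.969) and Eya4 (0.965). Prrx1 ran most like Ccdc93 (0.964), Asb7 (0.955) and Bicd2 (0.949), and Prrx2 most like Nos3 (0.968), Atox1 (0.968) and Myc (0.967). Over the 9 stage libraries the first genes were Supt3, Acsl5 and Gnl3 for Alx1 (r = 0.992 to 0.99), Usp54, Nopchap1 and Lrp8 for Alx4 (0.993 to 0.99), Prkdc, Dlx6 and Meox2 for Prrx1 (0.987 to 0.985) and Ap1g2, Col5a3 and Syngr2 for Prrx2 (0.977 to 0.962). These libraries fall into 4 or 3 groups, and the values describe likeness over libraries that share their group and table. Among the members, Prrx1 with Prrx2 had r = -0.779 over the arch libraries and -0.555 over the stage libraries, and Alx4 with Prrx2 had r = -0.92 over the stage libraries.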

How the data were processed

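The authors deposited raw read counts per gene. Per the paper's methods, reads were aligned to GRCm38/mm10 with QuasR and Rhisat2 in spliced mode and counted over UCSC known genes. The kit is named as unstranded in one label and by another product name in a second, while the paper's methods state counting with the orientation set to opposite, which is a stranded setting. Strandedness could not be settled, and reads of antisense genes may be included. The arch table came from paired-end and the stage table from single-end reads, so they were normalised separately and no test crossed them. Genes that reached 1 CPM in 2 or more libraries of a table were fitted with edgeR 4.0.16 (R 4.3.3; TMM scaling, quasi-likelihood test, one mean per group, 14383 and 13438 genes), with Benjamini-Hochberg adjustment over all genes. SE is the log2 fold change divided by the square root of F. DESeq2 1.42.0 and limma-voom 3.58.1 were alternatives. The labels state 3 independent biological replicates per group, and no library was a duplicate of another. Replicate numbers were taken as pairing PA2 and PA3 of a genotype, because all 6 such library pairs deviated together (r = 0.213 to 0.382). The test was tried on simulated data in which all genes had the same dispersion and the changed genes lay above a minimum level. It recovered 100% of 200 genes changed by 1 on the log2 scale in the PA2 comparison (14064 genes, 6.98% false among called). In the E12.5 comparison it also recovered 100% (13040 genes, 5.21% false among called). This recovery does not hold for noisier genes such as Alx1, whose PA3 change of -0.97 had an SE of 0.31 and was not called. List genes are named when the average log2 CPM is at least 1 (homeobox genes) or when they are among the 3 largest called rises or falls of a comparison. Some genes of the homeobox list are not reported here. The 3 genes most like each member are named by Pearson r. The members, lists and tests were chosen with earlier results of these data known.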

Additional observations from a re-analysis of the deposited data

Results flagged for a closer look

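The effect of the deletion on Alx4 differed between the arches under 1 of the fits. With the replicate number shared by PA2 and PA3 of a genotype as a block, the PA2 minus PA3 difference in log2 fold change was 0.93 (adjusted p = 0.022, edgeR). Without the block it was 0.94 (adjusted p = 0.825), and with a block of the number across genotypes it was 0.93 (adjusted p = 0.513).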

How the results depend on the processing

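Of the member fold changes under other settings, 501 stayed on their side of the threshold, 3 passed it and 20 no longer did. No called change reversed. A change of sign occurred 11 times, all in values near 0 that were not called. These were Prrx2 in PA3 of HIRE1del embryos (6 settings, down to -0.05) and the Prrx1 difference of deletion effects, PA2 minus PA3 (5 settings, down to -0.08). Ratios changed sign 6 times, for Alx4 to Alx1 from E10.5 to E14.5 (3 settings, down to -0.36) and for Prrx2 to Prrx1 between genotypes in PA2 (2 settings, up to 0.16) and PA3 (1 setting, 0.03). Of the 3 that passed, 1 was Alx4 in PA3 of HIRE1del embryos with the DESeq2 test (0.82, adjusted p = 0.00544) and 1 was Alx1 there with a replicate block (-1.02, adjusted p = 0.0229). The last was the Alx4 difference of deletion effects, PA2 minus PA3, with the block of genotype and number (0.93, adjusted p = 0.022). The block pairs the arches, and it changed no other call of a member in the arch table. Numbers did not pair genotypes or stages.

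Calls that were lost concerned Alx1 between arches of HIRE1del embryos with limma-voom (0.94; adjusted p = 0.0777) and with the 6 libraries alone (1.01; adjusted p = 0.0617), Alx4 from E10.5 to E12.5 with total counts only (-0.42; adjusted p = 0.0662) and with a replicate block (-0.46; adjusted p = 0.0573), Prrx1 from E10.5 to E14.5 with 1 CPM in every library (-0.10; adjusted p = 0.148), and Prrx1 between arches in WT without WT replicate 1 of either arch (-0.31; adjusted p = 0.122). The cause was not tested. Leaving out each replicate gave 0.54 to 1.27 for Alx1 and -0.55 to -0.30 for Prrx1 between arches of HIRE1del embryos, -0.45 to -0.34 for Prrx1 between arches in WT, -0.59 to -0.35 for Alx4 from E10.5 to E12.5, and -0.22 to -0.12 for Prrx1 from E10.5 to E14.5. The Alx4 to Alx1 ratio moved with the CPM added (0.1 or 2): to 3.56 or 0.98 from E10.5 to E12.5, to -3.18 or -1.34 from E12.5 to E14.5 and to 0.39 or -0.36 from E10.5 to E14.5.

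Genes called in PA2, PA3 and the difference between arches were 63, 31 and 7, against 162, 94 and 29 with DESeq2, 105, 54 and 12 with a replicate block, and 33 to 66, 8 to 28 and 3 to 12 on leaving out each replicate. The block of genotype and number gave 26 for the difference. Without WT replicate 1 of either arch PA3 had 17, and the arches of WT differed in 3449 genes against 5252. Alx1 had no value across stages with 1 CPM in every library, nor from E12.5 to E14.5 with the 6 libraries alone. At 3 to 5 counts per library, counting error limits how precisely the Alx1 level at E12.5 is known.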
